A study of Mus musculus with 20 samples.

Results

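Mouse kidney cells of the roxadustat arm that carry the surface protein Sca-1 were compared after 7 days of culture (day 7, 4 libraries) and straight after isolation (day 0, 2 libraries), by RNA sequencing. These 6 of the 20 libraries of the series were taken by their treatment and time labels, and all genes were described. The labels give mice injected intraperitoneally with roxadustat at 33 mg/kg for 7 days, digestion of the kidneys, and a magnetic sort for Sca-1. Cells of the day 7 group were then grown in a medium for mesenchymal stem cells with FCS under 20% oxygen, and the series' design text describes that culture medium as containing roxadustat. It names treated mice for the fresh cells, and whether the cultured cells also came from injected mice is not stated. The route of exposure to the drug and the time in culture therefore cannot be told apart. The genotype, strain and age of the mice are not given in the sources used here. Nor do the labels say whether replicates are separate mice or cultures. Every p-value thus rests on the spread between replicate libraries, which may be technical and was estimated over all 20 libraries of the series. Control cells at day 0 (2 libraries) and day 7 (4 libraries) are labelled control and, in the design text, come from untreated mice when fresh, but their labels carry the same injection and culture protocol as the roxadustat libraries. They serve below to show where the change over culture differed between the arms, and the arms share no library.

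Roxadustat inhibits the prolyl hydroxylases that tag hypoxia-inducible factor (HIF) for degradation, so that HIF accumulates at normal oxygen and raises genes of glycolysis, iron handling, vessel growth and matrix modification. Kidney tubule cells live on oxidation of fatty acids and reabsorb filtered solutes through segment-specific transporters, a state that is usually lost on plastic. Stromal cells on a stiff, serum-fed surface usually take up a contractile, matrix-producing form, and serum also drives resting cells into division.

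Each library held 15974511 to 19903160 counts, and levels are given as CPM, a gene's counts relative to those of its whole library after TMM scaling, with log2 fold changes ± SE and adjusted p-values from edgeR's quasi-likelihood test. A gene is called higher or lower at an adjusted p below 0.05. The mean difference between replicates beyond counting error, as biological coefficient of variation, was 9.01% at day 0 and 6.40% at day 7. Day 7 replicate 4 stood apart from the other day 7 libraries, with the ribosomal RNA gene CT010467.1 at 1129, 901, 1038 and 5289.8 CPM over the 4 replicates. At day 0 that gene stood at 4135 and 1504 CPM. Counts assigned to the mitochondrial genome, where some protein-coding genes had none, made up 12.2% and 10.6% at day 0 and 0.811% to 0.974% at day 7.

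Ly6a, which encodes Sca-1 (ENSMUSG00000075602, chromosome 15, 74994877 to 74998031 on GRCm38), was at 668 and 715 CPM at day 0 and at 525, 518, 486 and 479 CPM at day 7. The 4 cultured libraries all lay below both fresh ones (log2 fold change -0.46 ± 0.07, adjusted p = 3.40e-06), and 80.5% of all genes tested had no overlap. Scaled by library size alone the difference in Ly6a was -0.02 and not called (adjusted p = 0.792). The labels name the cells mesenchymal stem cell-like. Of the mesenchymal markers, the fresh libraries held Nt5e (CD73) at 274 and 218 CPM, Pdgfra at 22.5 and 26 CPM, Pdgfrb at 3.97 and 6.08 CPM and Thy1 (CD90) at 1.59 and 1.6 CPM. The 15 mesenchymal stromal markers summed to 1408 and 1471 CPM, and the 22 proximal tubule markers to 86199 and 87180.2 CPM. CPM is not corrected for transcript length, so these sums compare shares of reads, and the tubule share was the larger in both fresh libraries, against their label. Epo, the erythropoietin gene, had 0 counts in 5 of the 6 libraries and 1 count in day 7 replicate 2, which is under the limit of 3 counts a group (0.106 CPM at day 0 and 0.0364 CPM at day 7) that a count of 0 allows. Such limits, and the counting intervals below, cover counting error only.

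Most of the transcriptome differed between the fresh and the cultured cells. Of 18731 genes tested, 13982 (74.6%) were called, 6947 higher (37.1%) and 7035 lower (37.6%) at day 7, and 4749 were not called. A fold of at least 2 was reached by 3985 of the higher and 4743 of the lower genes, and a fold of at least 16 by 790 and 1403. Falls of that size thus outnumbered rises. The ranges of the 2 fresh and 4 cultured libraries did not overlap in 15073 genes (80.5%), and the median log2 fold change over all genes tested was 0.03. With counts scaled by library size alone, 9479 genes were higher and 5201 lower, 64.6% of the calls against 49.7%, and the median moved to 0.46, so small differences depend on the scaling.

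**Figure D1:**
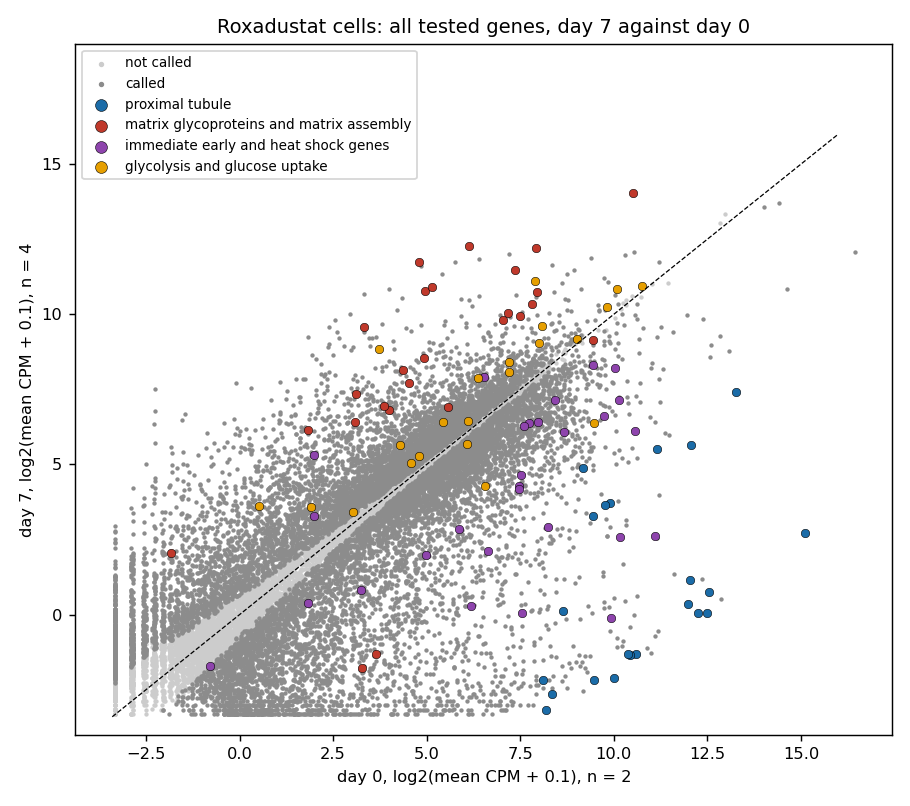
Level of each tested gene at day 7 (y axis, n = 4) against day 0 (x axis, n = 2), both as log2(mean CPM + 0.1), with the dashed line marking equal levels. Proximal tubule genes lie far below the line at the right, and most matrix genes lie above it.

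Large rises were seen in genes of several kinds. Cdkn2a, which had 3 counts over the fresh libraries and a ratio of 1726, is described with the cell cycle inhibitors below. Inhba, which encodes the activin A subunit, went from 0.331 and 0.152 to 92.6, 82.2, 90.1 and 93.3 CPM (log2 fold change 8.46 ± 0.39, adjusted p = 1.36e-12), and without day 0 replicate 1 its log2 fold change was 9.15. Dkk3, a secreted protein of the Dickkopf family, rose from 3.18 and 3.73 to 621, 589, 622 and 576 CPM. Aldh1a2, which makes retinoic acid, rose from 1.46 and 0.837 to 199.6, 184, 183 and 185 CPM. All 3 stood at 3.73 CPM or less in both fresh libraries and at 82.2 CPM or more in the 4 cultured ones. Gpr176, an orphan receptor, rose by 7.39 and Gdf6, a bone morphogenetic protein family member, by 7.05 on the log2 scale.

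**Figure D2:**
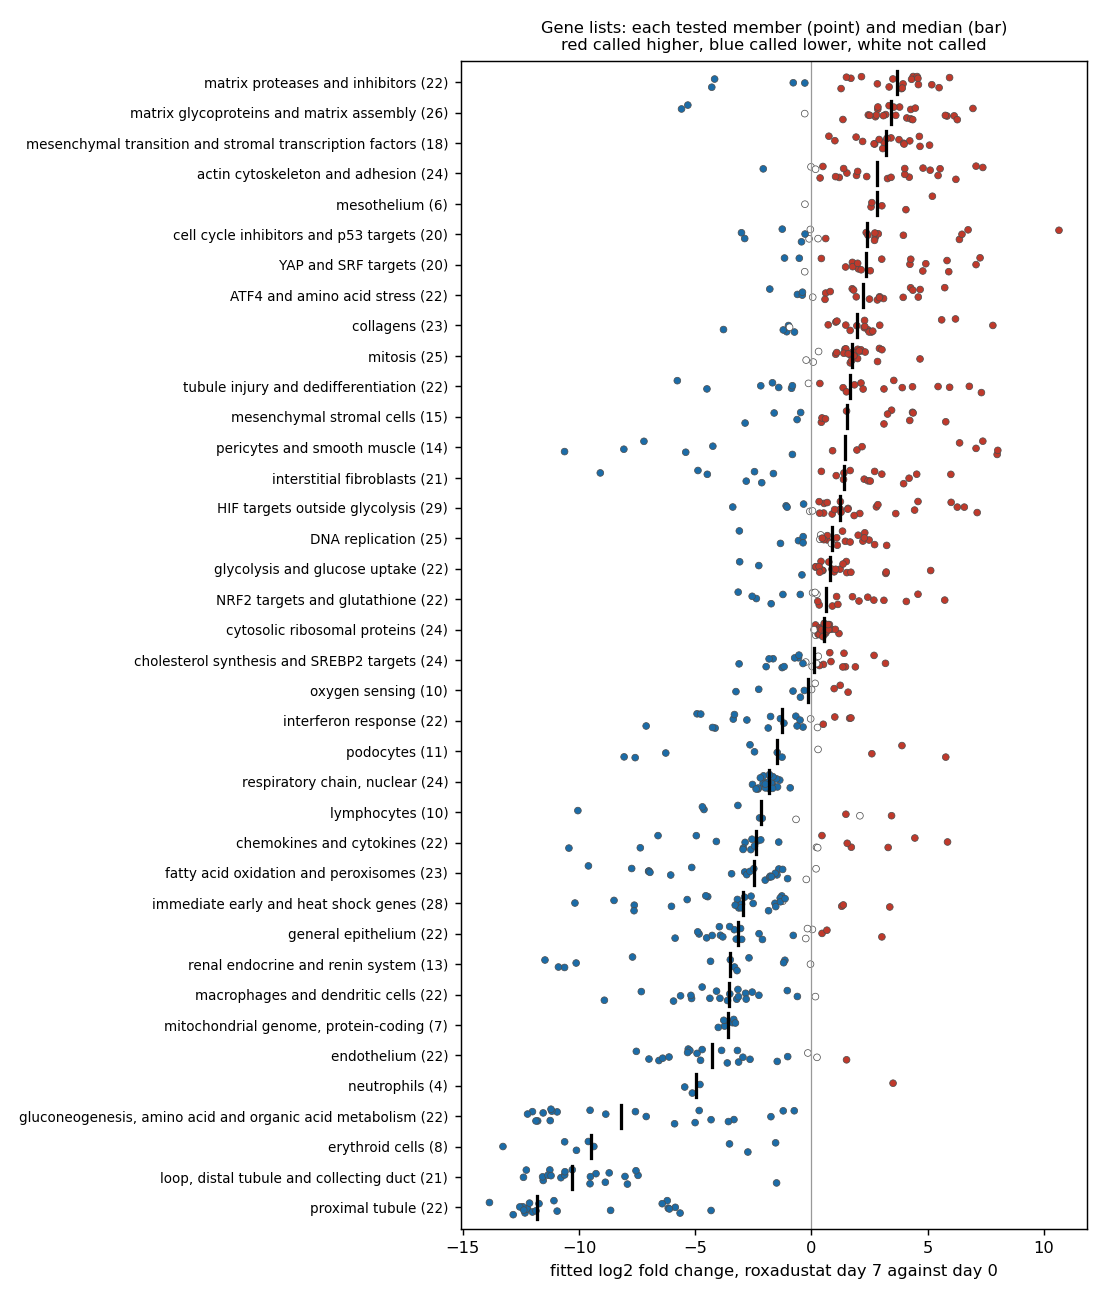
Fitted log2 fold change (x axis) of each tested member of 38 gene lists, with the number of members tested in brackets and a bar at each median. Tubule lists sit at the far left and matrix, actin and stromal transcription factor lists at the right, with few members of the other sign.

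Of the 38 lists, those of the tubule had the lowest medians. All 22 proximal tubule genes and all 21 genes of the loop, distal tubule and collecting duct were lower, with median log2 fold changes of -11.79 and -10.29 beside 0.03 over all genes. The summed level of the proximal list in culture was 342, 381, 328 and 329 CPM. Pvalb, a calcium-binding protein of the distal convoluted tubule, had 0 counts at day 7, and with it at its bound the second median is -9.53. Kap, an androgen-regulated secreted protein of the proximal tubule (ENSMUSG00000032758, chromosome 6, 133849851 to 133853762 on GRCm38), stood at 34361 and 35647 CPM at day 0. In culture it was at 4.56, 20.6, 0.273 and 0.497 CPM (log2 fold change -12.38 ± 0.82, adjusted p = 1.27e-09). Umod, which encodes the uromodulin of the thick ascending limb (ENSMUSG00000030963, chromosome 7, 119462711 to 119479282 on GRCm38), fell from 6757 and 8110.1 to 0.913, 4.44, 0.0545 and 0 CPM. Slc34a1, the phosphate carrier of the proximal brush border, fell from 4929 and 4826 to 1.2, 2.45, 0.0545 and 0 CPM, and Slc12a3, the thiazide-sensitive salt carrier of the distal convoluted tubule, from 1591 and 1351 to 0.144, 0.85, 0 and 0.136 CPM. Day 7 replicate 2 held the highest remainder of each of these 4 genes. Without it the log2 fold changes were -14.24 for Kap, -14.44 for Umod, -13.46 for Slc34a1 and -13.77 for Slc12a3. In bulk RNA, fewer cells of a type and less RNA per cell cannot be told apart, here and for every cell type below.

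Not all tubule transcripts fell to the same remainder. Of 32 tubule genes with at least 100 CPM in the fresh cells, 25 kept on average under 0.5% of their fresh level, a limit set after the values were seen. Their median remainder was 0.0238%, 0.0718%, 0.00531% and 0.0065% in day 7 replicates 1 to 4, so it differed more than 10 times between replicates 2 and 3. The other 7 kept 1.17% to 5.02% and were even over the replicates, with medians of 1.62%, 1.48%, 1.33% and 1.58%. No gene lay between 0.382% and 1.17%. The 7 were Lrp2 and Cubn, the megalin and cubilin receptors of protein uptake, the water channel Aqp1, the transcription factor Hnf4a, Ggt1, Gatm and Cyp4b1. Lrp2 (ENSMUSG00000027070, chromosome 2, 69424340 to 69586065 on GRCm38) went from 10056 and 9642 to 163, 169, 176 and 173 CPM and Hnf4a from 872 and 853 to 13.9, 12.7, 11.5 and 11.7 CPM. The cultured values of both lay within a narrow band in all 4 libraries. Among distal genes the magnesium channel Trpm6 fell least, from 107 and 89.1 to 35.7, 33.4, 35.1 and 34.7 CPM.

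**Figure D3:**
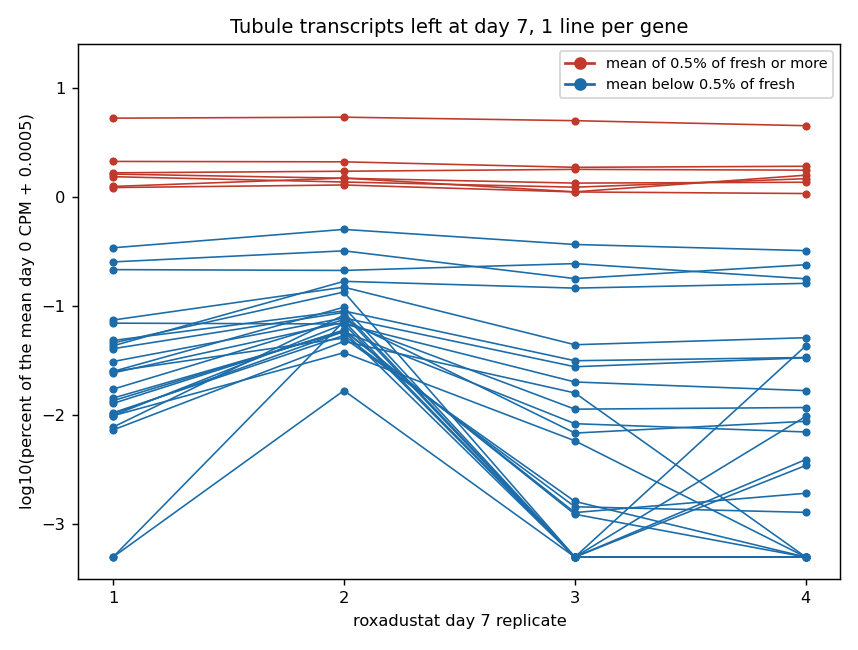
Remainder of 32 tubule genes in each day 7 replicate (x axis), as log10 of the percent of the mean day 0 CPM plus 0.0005 (y axis), with a line joining the values of 1 gene. The 25 genes in blue have their highest median in replicate 2 (0.0718%), and the 7 in red have medians of 1.33% to 1.62%.

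Metabolic genes of the tubule fell with it, and so did most renal endocrine genes tested. All 22 genes of gluconeogenesis and of amino acid and organic acid metabolism were lower (median -8.21, or -7.98 with Hpd and Bhmt, at 0 counts, placed at their bounds). Hpd, an enzyme of tyrosine breakdown, had 629 counts at day 0 and 0 at day 7, at least 612-fold lower. Of 23 genes of fatty acid oxidation and peroxisomes, 21 were lower and 0 higher (median -2.48). Ppargc1a, the coactivator that drives mitochondrial biogenesis, fell from 136 and 134 to 2.5, 1.65, 1.91 and 2.04 CPM, and Acadm, a dehydrogenase of medium-chain fatty acids, from 748 and 670.4 to 68.8, 65.5, 66.7 and 61.6 CPM. Cpt1a, which admits fatty acids to mitochondria, fell less, from 619 and 607 to 234, 232, 233 and 229 CPM.

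Genes of the respiratory chain fell in each case tested. All 24 nuclear genes of the chain were lower, within a span from -2.53 (Uqcrfs1) to -0.91 (Ndufa2) and with a median of -1.81. Atp5b, the catalytic subunit of ATP synthase, went from 3979.7 and 4033 to 1050.0, 1026, 1018 and 963 CPM. Of the 13 protein-coding genes of the mitochondrial genome, 7 were tested and lower (median -3.61). The other 6 had 0 counts in all 6 libraries, and whether this reflects their levels or the assignment of reads was not tested. Cytochrome oxidase subunit mt-Co1 fell from 25616 and 25000.0 to 1896, 1986, 1811 and 1729 CPM. Endocrine genes were lower in 12 of 13 tested cases (median -3.49). They included Kl, the FGF23 co-receptor, from 1061 and 1105 to 0.288, 0.802, 0.273 and 0.136 CPM, or a log2 fold change of -12.16 in place of -11.46 without day 7 replicate 2, and Ace, which makes angiotensin II, from 240.1 and 246 to 0.048, 0.142, 0.109 and 0.181 CPM. Renin itself (Ren1) had 334 counts at day 0 and 0 at day 7, at least 325-fold lower.

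Part of the epithelial program stayed measurable. Of 22 general epithelial genes 16 were lower, 3 higher and 3 not called (median -3.14). Cdh1, the adhesion protein E-cadherin, fell from 265 and 246 to 4.23, 4.39, 4.63 and 4.3 CPM and Epcam from 123 and 155 to 4.27, 5.48, 5.02 and 4.75 CPM. Cdh16, the kidney-specific cadherin, fell to 213, 212, 209 and 195 CPM from 1578 and 1739.5 CPM. Pax8, the transcription factor that specifies renal epithelium (ENSMUSG00000026976, chromosome 2, 24420560 to 24475599 on GRCm38), was at 76.1 and 68.9 CPM in fresh and 109.7, 114, 114 and 124 CPM in cultured cells. All 4 cultured libraries lay above both fresh ones (log2 fold change 0.67 ± 0.07, adjusted p = 4.29e-09), where 80.5% of all genes tested had no overlap. Krt19, a keratin of simple epithelia, rose from 2.72 and 2.05 to 22, 19.7, 17.9 and 19.2 CPM. Cldn3, a tight junction claudin, rose from 6.09 and 4.87 to 6.96, 7.32, 7.85 and 8.14 CPM, a call that was lost without day 0 replicate 2 (adjusted p = 0.124). Not called were Krt18, with means of 69.4 and 71.5 CPM, though called higher by library size alone (0.48), and the nephron factors Pax2, with 6.08 and 5.11 CPM, and Emx2, with 15.4 and 13.8 CPM.

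Genes known from injured and dedifferentiated tubules moved both ways, 14 of 22 higher and 7 lower (median 1.68). Havcr1, the injury receptor KIM-1 (ENSMUSG00000040405, chromosome 11, 46735080 to 46779578 on GRCm38), went from 4.97 and 6.47 to 949, 928, 890.3 and 858 CPM (log2 fold change 7.32 ± 0.36, adjusted p = 2.27e-11). Spp1, osteopontin, reached 18066, 17185, 16632 and 15881 CPM from 1473 and 1429 CPM. Cp, the ferroxidase ceruloplasmin, rose from 17.6 and 19.5 to 1203, 1185, 1096 and 1085 CPM, and Akap12, a scaffold for protein kinases, from 22.7 and 34.2 to 3289, 3041, 3265 and 3019 CPM. The fresh and cultured ranges of these 4 genes did not overlap, as in 80.5% of all genes tested. Vim, which encodes the mesenchymal filament vimentin, rose by 5.45, the adhesion receptor Vcam1 by 3.12 and the progenitor factor Sox9 by 2.14, while Cd24a, at 279 and 348 and then 302, 307, 275 and 266 CPM, was not called. By library size alone Cd24a was called higher (0.31, adjusted p = 0.0113). Lower were Itgb6, the epithelial integrin that activates TGF-beta, from 386 and 401 to 6.39, 8.02, 7.69 and 6.78 CPM, complement C3 (-4.49 on the log2 scale) and Lcn2 (-0.85). The other 4 lower members were Prom1, Clu, Ccl2 and Cxcl1. The list thus did not move as 1 block.

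Markers of the vessel wall and of blood cells fell. Of 22 endothelial genes 19 were lower and 1 higher (median -4.28). Pecam1 (CD31), an adhesion protein, went from 22.1 and 24.3 to 0.288, 0.661, 0.60 and 0.769 CPM. Cdh5 (VE-cadherin), which joins endothelial cells, went from 10.4 and 9.2 to 0.24, 0.189, 0.218 and 0.362 CPM. Kdr (VEGF receptor 2) fell from 25.2 and 25 to 1.01, 0.802, 1.09 and 0.95 CPM. All 3 lay at or below 1.09 CPM in every cultured library. Eng (endoglin), which stromal cells also carry, rose from 5.37 and 6.08 to 16, 14, 17.3 and 17.9 CPM. Flt1 (VEGF receptor 1) was not called, at 22.1 and 22.1 and 17.9, 17.4, 23.3 and 21.2 CPM, and turned to 0.29 (adjusted p = 0.00745) when scaled by library size alone. Its call also depended on 1 library, being lower without day 7 replicate 3 (-0.23, adjusted p = 0.0205).

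In the macrophage and dendritic cell list 21 of 22 genes were lower and 0 higher (median -3.56), and its summed level went from 623 and 429 to 80.3, 73.4, 73.3 and 71.7 CPM. Ptprc (CD45), the common leukocyte antigen, was at 19.6 and 16.7 and then 1.49, 1.6, 1.69 and 1.58 CPM. Lyz2 (lysozyme) fell from 50.5 and 61 to 6.29, 6.09, 5.89 and 5.74 CPM and Csf1r, the receptor on which macrophages depend, from 76.5 and 57.7 to 4.66, 4.67, 3.71 and 4.43 CPM. C1qa, a complement component made by resident macrophages, fell from 28.3 and 16.6 to 0.672, 0.85, 0.872 and 1.04 CPM and Mrc1, the mannose receptor, from 29.9 and 23.4 to 0.768, 0.85, 0.654 and 0.633 CPM. None was at 0 at day 7, and whether these low counts came from leukocytes was not tested. Class II antigen presentation split. Cd74 fell from 106 and 58.6 to 0.384, 0.378, 0.709 and 0.588 CPM and H2-Aa, the alpha chain, from 72.5 and 39.2 to 0.0961, 0.142, 0.164 and 0.0452 CPM. H2-Ab1, the beta chain that pairs with H2-Aa, was still at 31, 26.1, 28.7 and 26.1 CPM after 53.1 and 31.6 CPM (log2 fold change -0.60 ± 0.19), and without day 0 replicate 1 its difference was -0.15 and not called (adjusted p = 0.486), as by library size alone (adjusted p = 0.426). Cd14 was not called, at 22 and 17.2 and 23.6, 23, 21.2 and 20.7 CPM, and without day 0 replicate 1 it was called higher (0.39, adjusted p = 0.0309).

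Few lymphocyte and neutrophil genes had enough counts to be tested, 10 of 20 and 4 of 12. Of the lymphocyte genes 6 were lower and 2 higher, Lck, and Thy1, which stromal cells also carry (median -2.17, or -2.18 with genes at 0 placed at their bounds). Of the neutrophil genes 3 were lower and 1, the collagenase Mmp8, higher (median -4.96, or -3.96). All 8 erythroid genes tested were lower (median -9.48, or -7.56 with the 3 genes at 0 placed at their bounds). The globin gene Hbb-bs had 2078 counts at day 0 and 0 at day 7, at least 2022-fold lower. Ighm, the heavy chain of IgM, had 220 counts and 0, at least 214-fold lower. Of 11 podocyte genes 7 were lower and 3 higher, Wt1, Synpo and Nes (median -1.47). Of 6 mesothelial genes 5 were higher and 0 lower (median 2.82). Among the 5 were Wt1, also a member of the podocyte list, and Krt19, also a member of the general epithelial list.

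Of 21 interstitial fibroblast genes 14 were higher and 7 lower (median 1.4). Fbln2, a matrix fibulin, rose from 46 and 61.5 to 3385, 3339.8, 3699 and 3342 CPM (log2 fold change 6.0 ± 0.16), and Pdgfrb, a receptor of pericytes and fibroblasts, from 3.97 and 6.08 to 106, 109, 125 and 121 CPM (log2 fold change 4.53 ± 0.12). Pdgfra, the sister receptor, which marks interstitial fibroblasts (ENSMUSG00000029231, chromosome 5, 75152292 to 75198215 on GRCm38), went the other way, from 22.5 and 26 to 5.91, 5.1, 5.34 and 5.65 CPM (log2 fold change -2.14 ± 0.27, adjusted p = 2.86e-06). Further lower members were matrix proteins. Dcn (decorin) went from 97.4 and 133 to 17.9, 17.4, 15.6 and 15.1 CPM. Lum (lumican) fell from 17.2 and 31 to 1.3, 0.944, 0.927 and 1.09 CPM, and the matrix protein Dpt (dermatopontin) from 24.5 and 39.1 to 1.1, 1.13, 1.04 and 0.995 CPM. The remaining lower members were Pi16, Fbln1 and Tcf21.

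Pericyte and smooth muscle genes moved both ways, with 8 of 14 higher and 6 lower (median 1.44). Acta2, smooth muscle actin (ENSMUSG00000035783, chromosome 19, 34241090 to 34255590 on GRCm38), rose from 5.17 and 14.8 to 1631, 1604, 1638 and 1660.3 CPM (log2 fold change 7.38 ± 0.26, adjusted p = 1.05e-14). The 2 fresh libraries differed in Acta2, and without day 0 replicate 2 its log2 fold change was 8.32. Tagln (transgelin), an actin-binding protein, rose from 5.37 and 9.89 to 1054, 1029.5, 1018 and 994 CPM. Cnn1 (calponin) rose from 0.596 and 1.06 to 218, 205, 214 and 203 CPM and Actg2 (enteric actin) from 0.132 and 0.228 to 46.1, 46.9, 48 and 50.8 CPM. Each was over 100 times its mean fresh level. The intermediate filament gene Des rose by 6.38. Lower were Rgs5, a regulator of G protein signals in pericytes, from 12.9 and 23.9 to 0.384, 0.472, 0.436 and 0.407 CPM, the potassium channel subunit Abcc9, from 12.7 and 11 to 0, 0.142, 0 and 0.136 CPM, and Cspg4 (NG2), from 19.7 and 16.5 to 9.46, 8.83, 10.8 and 12 CPM. Kcnj8, the channel partner of Abcc9, completed the lower members together with Akr1b7 and renin. Of the 15 mesenchymal stromal cell markers 11 were higher and 4 lower (Ly6a, Cxcl12, Kitl and Ngfr). Thy1 rose from 1.59 and 1.6 to 17.7, 17.1, 18.4 and 16.8 CPM and Nt5e from 274 and 218 to 356, 334, 327 and 308 CPM.

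**Figure D4:**
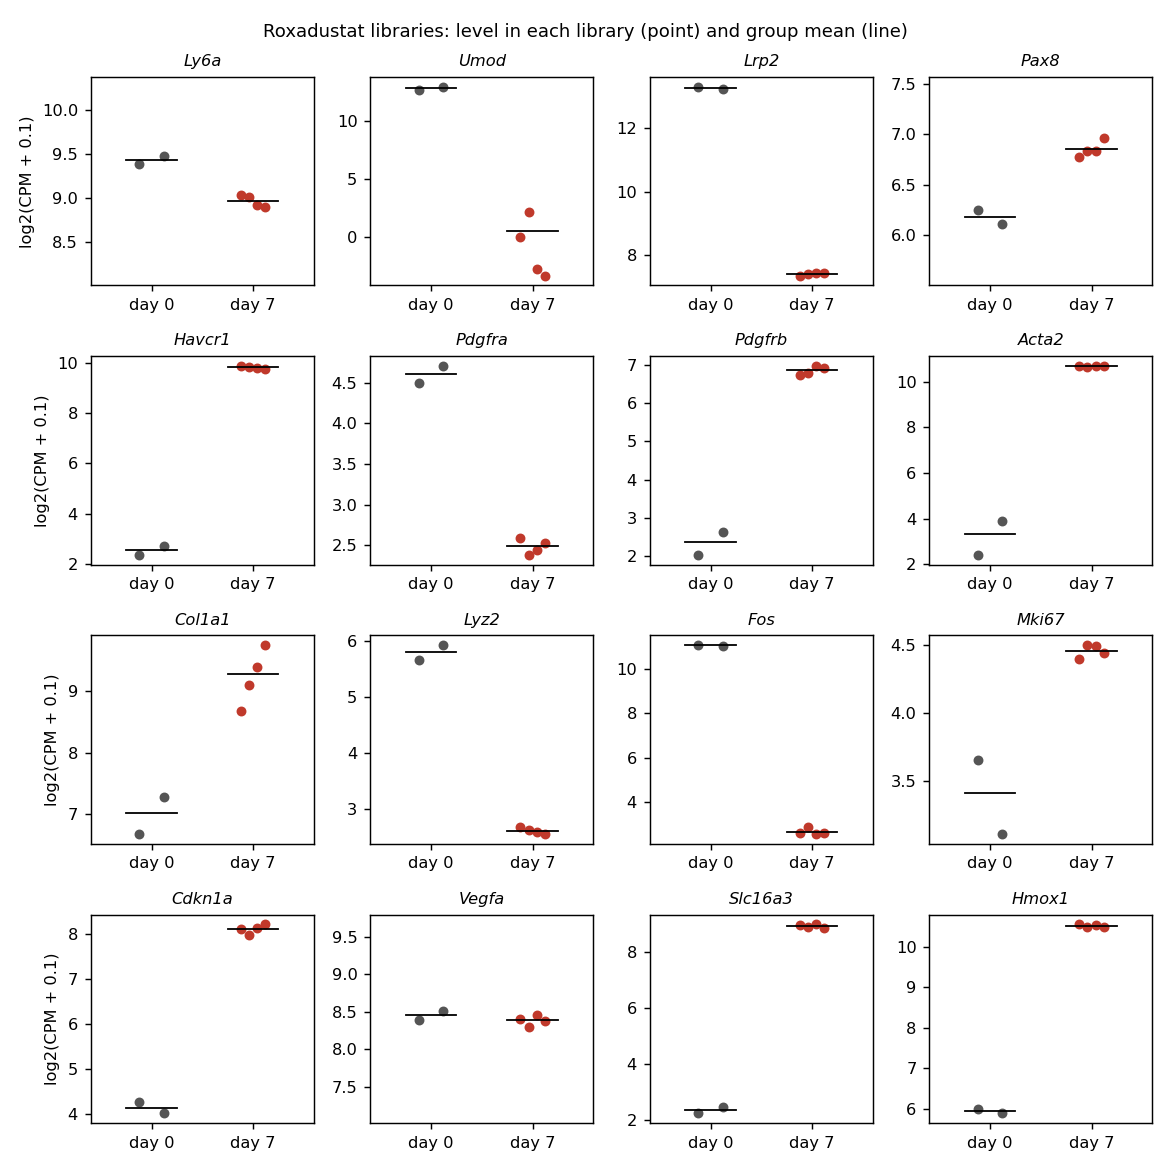
Level of 16 genes in each roxadustat library as log2(CPM + 0.1), with 2 points at day 0, 4 at day 7 and a line at the log2 of each group's mean. The groups overlap for Vegfa and stand apart for the other 15 genes, as in 80.5% of all genes tested. The y axes differ between genes.

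Matrix genes rose in most cases. Of 26 glycoproteins and matrix assembly enzymes 23 were higher and 2 lower (median 3.44), and their summed level went from 3867 and 3819 to 44701, 44442, 46393 and 45626 CPM. Fn1 (fibronectin) rose from 56.4 and 84.9 to 3721, 4600.2, 5077 and 6555 CPM and Tnc (tenascin C) from 12.8 and 42.8 to 3318, 3266, 3611 and 3449.7 CPM. The fresh libraries differed in Tnc, and its log2 fold change of 6.95 was 6.34 without day 0 replicate 1 and 8.07 without replicate 2. Lox, which cross-links collagen and elastin, rose from 30.9 and 39.2 to 1775, 1885, 1979 and 1974 CPM, and Loxl2 from 6.03 and 13.8 to 732, 731, 843 and 720.4 CPM (without day 0 replicate 2, 6.98 in place of 6.28). Postn (periostin) rose from 85 and 179 to 948, 899.7, 891 and 814 CPM, or by 3.40 in place of 2.76 on the log2 scale without day 0 replicate 2. Elastin itself fell, with Eln at 10.1 and 14.8 and then 0.336, 0.283, 0.327 and 0.271 CPM, and so did Tgfbi, with a log2 fold change of -5.59. The matrix signal Ccn1 was not called and lay at 882 and 503 and 543, 528, 625 and 576 CPM, and without day 0 replicate 2 it was called lower (-0.62, adjusted p = 0.000182).

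Collagens were higher in 17 of 23 cases and lower in 5 (median 1.96). Fibrillar Col1a1 (ENSMUSG00000001506, chromosome 11, 94936224 to 94953042 on GRCm38) was at 102 and 156 CPM in fresh cells and 409.6, 550.4, 671 and 864 CPM in culture (log2 fold change 2.27 ± 0.38, adjusted p = 6.16e-05). Its cultured values varied over about a 2-fold span and were highest in replicate 4. Partner chain Col1a2 was steadier and rose from 292 and 489 to 1939, 1992, 2368 and 2146 CPM, and Col3a1 from 918 and 1590.1 to 4045, 3838, 4385 and 3684 CPM. Col12a1, which decorates fibrils, rose furthest among those named here, from 18.4 and 22.1 to 1380.5, 1433, 1551 and 1591 CPM. The lower members were Col14a1 (-3.78), the beaded-filament chains Col6a3 (-1.21) and Col6a2 (-0.98), and the glomerular and tubular basement membrane chains Col4a4 (-1.06) and Col4a3 (-0.73).

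Proteases of the matrix and their inhibitors were higher in 18 of 22 cases (median 3.69). Plau, which encodes urokinase, an activator of plasminogen, fell from 940.2 and 789 to 50.1, 47.5, 47.7 and 47.6 CPM. The gelatinase Mmp2 rose by 3.94 and the inhibitor Timp1 by 4.61. Mmp3, a stromelysin, went from 1.26 and 4.87 to 0.0961, 0.236, 0.164 and 0.0905 CPM and fell by 4.29, with log2 fold changes of -4.97 without day 0 replicate 1 and -3.04 without replicate 2. Timp3 was at 1474 and 1672 and then 1309, 1251, 1399 and 1216 CPM, with a log2 fold change of -0.28 that became 0.15 by library size alone. That call was lost without day 0 replicate 2 (adjusted p = 0.316), day 7 replicate 2 (0.0582) or day 7 replicate 4 (0.0684). Mmp13 lay at 9.54 and 2.51 and 3.6, 3.3, 3.6 and 3.75 CPM, its direction rested on 1 fresh library, and it turned to 0.53 without day 0 replicate 1 and was -1.40 without replicate 2.

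Genes of the actin cytoskeleton and of the mechanical and serum response rose as well, 21 of 24 and 17 of 20 (medians 2.83 and 2.34). Flna (filamin A) went from 127 and 167 to 4048, 4038, 4257 and 4112 CPM. Ankrd1, a target of YAP, rose from 2.98 and 7.23 to 800.0, 787, 749.6 and 728 CPM (without day 0 replicate 2, by 8.02 in place of 7.26), and Ccn2 (CTGF) from 32.2 and 29.5 to 1721, 1726, 1856 and 1763 CPM. Actg1 was the 1 lower actin gene, but its reads can be shared with near-identical actin copies and its value is uncertain. Lower YAP and SRF genes were Srf (-1.16) and F3 (-0.52), the latter a small difference of the kind that depends on the scaling. All 18 transcription factors of stroma and mesenchymal transition were higher (median 3.19). Prrx1, a factor of limb and stromal mesenchyme, rose from 4.7 and 5.4 to 91.6, 96.1, 96 and 95.6 CPM. Zeb1, a repressor of E-cadherin, rose from 8.08 and 7.15 to 68.8, 65.7, 67.8 and 65.1 CPM, and Runx1 from 5.1 and 5.93 to 74.4, 86.9, 86.9 and 101 CPM. Osr1 rose least, from 1.46 and 2.05 to 2.55, 3.59, 2.51 and 3.08 CPM, and its call was lost without day 0 replicate 1 (adjusted p = 0.158).

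Genes of division rose from a low start. Of 25 mitosis genes 22 were higher and 0 lower (median 1.76). Cdk1, the kinase that starts mitosis (ENSMUSG00000019942, chromosome 10, 69335146 to 69352938 on GRCm38), went from 3.11 and 1.67 to 18.8, 18, 15.8 and 17.5 CPM (log2 fold change 2.85 ± 0.24, adjusted p = 3.16e-10). Anln (anillin), which organises the cleavage ring, rose furthest of the list, from 4.57 and 3.8 to 110.1, 110.3, 106 and 104 CPM. Top2a, which untangles chromosomes, rose from 13.8 and 10.3 to 39, 43.3, 41.8 and 40.4 CPM. The proliferation antigen Mki67 (ENSMUSG00000031004, chromosome 7, 135689784 to 135716361 on GRCm38) was at 12.5 and 8.52 and then 21, 22.6, 22.5 and 21.7 CPM (log2 fold change 1.05 ± 0.29, adjusted p = 0.00373), a call that was lost without day 0 replicate 2 (0.82, adjusted p = 0.0594). Ube2c, which marks mitotic proteins for degradation, rose from 1.66 and 0.761 to 6.0, 6.09, 6.05 and 6.51 CPM, or by 3.03 in place of 2.31 without day 0 replicate 1. Kinesins Kif11 and Kif23 and the spindle protein Nusap1 were not called, with log2 fold changes of 0.31, -0.23 and 0.08. By library size alone Kif11 (0.75, adjusted p = 0.00293) and Nusap1 (0.52, adjusted p = 0.0159) were called higher. Kif23, whose sign also depends on the scaling, was called lower with DESeq2 size factors (-0.32, adjusted p = 0.0235), with DESeq2 itself and among genes of at least 1 CPM.

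Of 25 DNA replication genes 17 were higher and 5 lower (median 0.88). Rrm1, the large subunit of ribonucleotide reductase, rose from 18.4 and 20.1 to 192, 179.8, 182 and 173 CPM. Mcm10 fell by 1.33 on the log2 scale. The helicase subunit Mcm6 (-0.56) was also lower, but not by library size alone. Tyms (-0.36) and Pcna (-0.35) were called lower, but by library size alone they turned to 0.079 and 0.084. Without day 0 replicate 2 Tyms, and without day 0 replicate 1 Pcna, were no longer called (adjusted p of 0.107 and 0.0821).

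The promoters of 2 mitosis genes are shown because members of that list rose together. Genes on a chromosome whose sequences are not printed here were left out of the choice. The 2 shown rose furthest of the 7 remaining genes called higher whose window holds both motifs, so the motifs chose them. In each, capitals mark CCAAT, the box bound by NF-Y, and TTTGAA, the core of the cell cycle homology region through which many late cell cycle genes are repressed in resting cells, on either strand. Both are RefSeq windows of the 250 bases before the start site (GRCm38.p6), for Cdk1 at chr10:69352913-69353162, minus strand, and for Ube2c at chr2:164769679-164769928, plus strand, read in the direction of the gene.
Cdk1: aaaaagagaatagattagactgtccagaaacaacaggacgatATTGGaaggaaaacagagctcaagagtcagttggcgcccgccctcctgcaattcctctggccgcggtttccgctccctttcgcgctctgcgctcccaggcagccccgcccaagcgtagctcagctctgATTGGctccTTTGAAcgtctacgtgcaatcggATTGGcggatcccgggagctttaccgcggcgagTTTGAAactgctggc
Ube2c: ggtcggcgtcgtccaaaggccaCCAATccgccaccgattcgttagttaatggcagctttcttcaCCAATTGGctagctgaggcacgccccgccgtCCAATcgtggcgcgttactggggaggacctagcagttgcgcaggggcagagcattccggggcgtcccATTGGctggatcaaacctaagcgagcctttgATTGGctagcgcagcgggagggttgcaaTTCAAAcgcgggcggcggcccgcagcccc

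Windows were found for 20 of the 25 mitosis genes (21 windows). CCAAT stood in 85.7% and TTTGAA in 38.1% of them, against 33.8% and 16% of all 32851 windows (27025 genes). The DNA replication windows (23, of 20 genes) held CCAAT in 69.6% and TTTGAA in 13%. Cdk1 has TTTGAA at 71 and 15 bases before the start and 3 CCAAT boxes. Ube2c has 6 CCAAT boxes, of which those at 186 and 183 bases overlap on opposite strands. Cdk1 also holds acgtg, left in lower case. These are matches of letters and were not tested as sites.

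Inhibitors of the cycle rose beside the division genes. Of 20 cell cycle inhibitors and p53 targets 12 were higher and 5 lower (median 2.40). Cdkn2a, the INK4a/ARF locus, had 3 counts over the fresh and 15117 over the cultured libraries, a ratio of 1726 (95% counting interval 590 to 8370), and its 4 cultured values were 193, 187, 178 and 176 CPM. Neighbouring Cdkn2b (p15) rose from 3.18 and 2.28 to 241, 223, 235 and 216 CPM, and Cdkn1a (p21), the main arrest gene under p53, from 19.1 and 16.1 to 276, 251, 278 and 296 CPM. The p53 targets Phlda3 and Eda2r reached 380.4, 353, 382 and 337 CPM and 226, 216, 211 and 201 CPM from means of 4.02 and 2.0 CPM. Lower were Btg2, from 1091 and 1165 to 145, 138, 147 and 131 CPM, Gadd45b, from 132 and 142 to 19.8, 18.1, 20.0 and 17.1 CPM, Gadd45a, Cdkn1b and Perp. Btg2 is also a member of the immediate early list described below.

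Targets of HIF outside glycolysis were higher in 23 of 29 tested cases and lower in 4 (median 1.25). Slc16a3, the lactate exporter MCT4 (ENSMUSG00000025161, chromosome 11, 120948480 to 120960868 on GRCm38), went from 4.64 and 5.48 to 498, 468, 505 and 459 CPM (log2 fold change 6.58 ± 0.12, adjusted p = 2.34e-26). Mgarp, a mitochondrial protein, rose from 0.662 and 0.228 to 70.7, 63.8, 67.3 and 60.8 CPM, or by 8.14 in place of 7.13 without day 0 replicate 1, and Ndufa4l2, which dampens complex I, from 1.13 and 1.75 to 91.4, 92.8, 97.4 and 87.2 CPM. All 3 stood at 5.48 CPM or less in both fresh libraries and at 60.8 CPM or more in all cultured ones. Hmox1, heme oxygenase, rose from 62.9 and 58.7 to 1506, 1429, 1476 and 1443 CPM. Adm (adrenomedullin) rose by 2.08, and the collagen prolyl hydroxylases P4ha1 and P4ha2, of which P4ha2 stood at 391, 363, 381 and 357 CPM in culture, by 2.80 and 3.63 on the log2 scale.

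Other HIF targets were not called, fell or rose little. Vegfa, the vessel growth factor (ENSMUSG00000023951, chromosome 17, 46016993 to 46032369 on GRCm38), was at 336 and 364 CPM at day 0 and 339, 315, 351 and 332 CPM at day 7 (log2 fold change -0.07 ± 0.06, adjusted p = 0.303). Its direction turned with the scaling, to 0.37 (adjusted p = 3.38e-06) by library size alone and to a called -0.16 with DESeq2's size factors (adjusted p = 0.012). Mxi1, a Myc antagonist, was not called either, at 57.2 and 59.6 and 61.3, 63.1, 60.7 and 55.9 CPM, and was called higher by library size alone (0.48). The carbonic anhydrases Car12, from 256 and 259 to 26.3, 24.7, 22.8 and 24.7 CPM, and Car9, from 25.9 and 21.1 to 11.7, 10.6, 10.8 and 11.1 CPM, fell, and so did the adenylate kinase Ak4, from 414 and 493 to 228, 227, 223 and 200.3 CPM. Bhlhe40, a transcriptional repressor, was lower at -0.34, but turned to 0.10 by library size alone. Pdk1, which shuts pyruvate out of mitochondria, rose modestly, from 216 and 207 to 330.3, 308, 306 and 275 CPM.

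In the list of glycolysis and glucose uptake 19 of 22 genes were higher and 3 lower (median 0.82). Hk2, the inducible hexokinase, rose from 10.7 and 15.4 to 464, 433, 481 and 443 CPM. Pkm, pyruvate kinase, rose from 241 and 232 to 2311, 2198, 2234 and 2084 CPM, and Slc2a1, the GLUT1 transporter, from 84.3 and 81.2 to 229.9, 230.1, 245 and 233 CPM. No cultured library of these 3 fell within the fresh range, and the ranges did not overlap in 80.5% of all genes tested. Ldha, which makes lactate, rose from 1095 and 1068 to 1919.5, 1811, 1803 and 1744 CPM, whereas its partner subunit Ldhb, which is typical of oxidative tissue, fell from 731 and 693 to 89.2, 83.3, 81.3 and 81.8 CPM. The lactate dehydrogenase subunits thus parted. The liver-type phosphofructokinase Pfkl rose by 1.52. The muscle type Pfkm was lower at -0.41 and turned to 0.030 by library size alone, and Galm fell by 2.26 on the log2 scale. Reads of Gapdh, Pgk1 and Pgam1, all called higher, can be shared with their processed pseudogenes and are uncertain.

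Of 10 genes of oxygen sensing itself 3 were higher and 5 lower (median -0.15), beside 37.1% and 37.6% of all genes tested. By library size alone the median turned to 0.29 and 3 genes were lower, so the smaller falls in this list depend on the scaling. Of the 3 prolyl hydroxylases that roxadustat inhibits, Egln3 and Egln1, themselves HIF targets, rose and Egln2 fell. Egln3 went from 11.3 and 9.66 to 32.4, 29.7, 31.9 and 31.8 CPM and Egln1 from 102 and 94.6 to 238, 231, 233 and 228 CPM. Egln2 was at 64.8 and 57 and then 43.8, 44.2, 46.5 and 41.3 CPM. Hif1a (ENSMUSG00000021109, chromosome 12, 73901375 to 73947530 on GRCm38) was at 182 and 177 and then 144, 153, 145 and 139 CPM (log2 fold change -0.30 ± 0.06, adjusted p = 1.10e-04), which turned to 0.13 by library size alone. Epas1 (HIF-2 alpha), the form that drives Epo in the kidney, fell from 27.8 and 26.2 to 2.11, 3.02, 2.56 and 3.62 CPM. Vhl, the ligase subunit that degrades HIF, rose from 29.7 and 28.7 to 59.9, 59.5, 57.6 and 53.4 CPM. These are transcript levels, while HIF is controlled mainly through the stability of its alpha subunits.

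ACGTG, the core of the hypoxia response element, is in capitals on either strand in the promoter windows below. Genes of the chromosome left out for the mitosis windows were left out here too. The windows shown are those of the 3 HIF targets that rose furthest among the 10 remaining ones called higher with ACGTG in the window. They lie at chr3:51396548-51396797, minus strand for Mgarp, at chr11:120948817-120949066, plus strand for Slc16a3 and at chr11:54100674-54100923, plus strand for P4ha2 (250 bases before the start, RefSeq, GRCm38.p6).
Mgarp: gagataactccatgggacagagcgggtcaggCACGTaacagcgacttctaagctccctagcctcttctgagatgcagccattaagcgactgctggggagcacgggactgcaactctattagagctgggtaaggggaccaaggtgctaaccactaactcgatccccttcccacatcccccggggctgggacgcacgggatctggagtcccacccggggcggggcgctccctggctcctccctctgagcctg
Slc16a3: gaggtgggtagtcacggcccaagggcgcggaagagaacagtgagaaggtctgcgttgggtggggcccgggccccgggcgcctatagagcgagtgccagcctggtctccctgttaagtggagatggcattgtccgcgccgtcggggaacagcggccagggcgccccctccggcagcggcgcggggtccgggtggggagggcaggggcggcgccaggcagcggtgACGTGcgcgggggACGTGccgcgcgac
P4ha2: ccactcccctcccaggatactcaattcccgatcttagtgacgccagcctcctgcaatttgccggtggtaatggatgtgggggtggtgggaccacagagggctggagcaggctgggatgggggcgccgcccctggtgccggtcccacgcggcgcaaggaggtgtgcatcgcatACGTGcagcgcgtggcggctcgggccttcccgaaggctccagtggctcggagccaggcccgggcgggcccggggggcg

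ACGTG stood in 53.1% of the windows of HIF targets (32 windows of 22 of the 30 genes) and in 37.5% of those of glycolysis genes (32 windows of 20 of 22 genes), against 16.6% of all windows. In Slc16a3 it stands 27 and 14 bases, in P4ha2 78 bases and in Mgarp 219 bases before the start.

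Stress programs other than HIF moved in different directions. Genes under ATF4, which answers amino acid shortage, were higher in 17 of 22 cases and lower in 4 (median 2.22). Slc7a11, the cystine importer, rose from 1.79 and 2.21 to 109, 110.0, 104 and 102 CPM and Asns, asparagine synthetase, from 5.83 and 7.53 to 174, 174, 170.3 and 163 CPM. Atf4 itself lay at 306 and 316 and 336, 328, 325 and 305 CPM and was not called (adjusted p = 0.454), but by library size alone it was called higher (0.49). Targets of NRF2 and genes of glutathione metabolism were higher in 13 of 22 cases and lower in 6 (median 0.62). Gsta4 rose from 40.0 and 31.7 to 335, 320.2, 286 and 309.9 CPM and G6pdx, the entry to the pentose phosphate pathway, from 34.6 and 29.2 to 208, 211, 198 and 207 CPM. Gpx3, the secreted glutathione peroxidase made by proximal tubules, fell from 5786 and 4928 to 958, 857, 944 and 904 CPM. Of 24 cholesterol genes 10 were higher and 10 lower (median 0.13). That is near the split of all genes tested, of which 37.1% were higher and 37.6% lower (median 0.03). Hmgcs1, an early enzyme of the pathway, fell from 1358 and 1252 to 154, 157, 147 and 146 CPM.

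Immediate early and heat shock genes, which tissue digestion is known to induce, were lower in 24 of 28 cases and higher in 3 (median -2.94). Fos (ENSMUSG00000021250, chromosome 12, 85473890 to 85477273 on GRCm38) fell from 2214 and 2174 to 5.81, 7.03, 5.62 and 5.83 CPM (log2 fold change -8.49 ± 0.08, adjusted p = 4.98e-32). Fosb fell from 989 and 961 to 0.624, 1.32, 0.654 and 0.724 CPM and Atf3 from 1104 and 1212 to 6.1, 7.13, 5.07 and 5.16 CPM. Jun fell to 70.1, 65.1, 69.6 and 69.7 CPM from 1557 and 1466 CPM. The heat shock gene Hspa1a fell by 6.02 on the log2 scale. The share of the digestion in these levels was not tested. Higher were Fosl1, at 3.84 and 3.96 and then 8.26, 8.69, 10.8 and 10.9 CPM, Fosl2, at 93.6 and 90.4 and then 215, 229.6, 251 and 259 CPM, and the small heat shock gene Hspb1, by 3.37.

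Inflammatory genes fell more often than they rose. Interferon response genes were lower in 16 of 22 cases and higher in 4 (median -1.26), with Irf1 from 205 and 193 to 20.8, 19.6, 18.3 and 18.7 CPM. Ifit2 and Ifit3 rose, by 1.65 and 1.70. Of 22 chemokine and cytokine genes 14 were lower and 6 higher (median -2.38). Cxcl10 fell from 36 and 50.3 to 0.288, 0.33, 0.164 and 0.226 CPM, and Il1b had 771 counts at day 0 and 1 at day 7, a ratio of 2251 (95% counting interval 403 to 89020). The alarmin Il33 rose from 6.82 and 8.82 to 488, 450.0, 462 and 408 CPM and Csf1, the growth factor of macrophages, from 14.5 and 17.3 to 327, 327, 383 and 354 CPM. Cytosolic ribosomal protein genes were higher in 21 of 24 cases (median 0.56), and their reads can be split with processed pseudogenes.

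The change over culture in the roxadustat arm was then set against that in the control arm, whose fresh libraries varied more (biological coefficient of variation 16.2%) and which had 6925 genes higher (37%) and 7401 lower (39.5%) at day 7. Of the 6947 and 6925 higher genes 5790 were shared, and of the 7035 and 7401 lower genes 6203. The change differed in 28.9% of genes. It was more positive in the roxadustat arm in 2901 genes (15.5%) and more negative in 2517 (13.4%), and 197 genes rose with roxadustat and fell in control while 160 did the opposite, each also called in the difference. For HIF targets the change was more positive in 25 of 29 genes and more negative in 1, with medians of 1.25 with roxadustat and -0.29 in control. For glycolysis it was more positive in 20 of 22 and more negative in 0 (0.82 and -0.84). Slc16a3 was at 3.07 ± 0.34 CPM in fresh and 3.77 ± 0.417 CPM in cultured control cells (mean ± SD, n = 2 and 4), against 5.06 ± 0.594 and 483 ± 22.5 CPM with roxadustat (difference of the changes 6.28 ± 0.24, adjusted p = 5.73e-17). Vegfa fell in control from 311 ± 6.81 to 62.7 ± 1.62 CPM, where the roxadustat arm had 350.1 ± 19.4 and 334 ± 15 CPM (difference 2.25 ± 0.08, adjusted p = 3.80e-17). Ak4 fell in both arms, to 3.09 ± 0.168 CPM in control and 219.7 ± 13.1 CPM with roxadustat (difference 5.99 ± 0.17). In each of these 3 genes the cultured roxadustat cells held the higher level. Pdk1 (4.02), Slc2a1 (2.61) and Hmox1 (4.69) also differed toward roxadustat, and Hif1a, which rose in control, differed the other way (-0.74). For Hmox1 the starting level differed too, at 216 ± 8.35 CPM in fresh control and 60.8 ± 2.97 CPM in fresh roxadustat cells. Cultured cells held it at 201.5 ± 11.6 and 1463 ± 34.5 CPM.

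Division genes rose less with roxadustat. All 25 mitosis genes had a more negative change than in control (medians 1.76 and 4.17). Cultured control cells held Mki67 at 108 ± 1.52 and roxadustat cells at 21.9 ± 0.74 CPM, after 9.54 ± 8.0 and 10.5 ± 2.83 CPM in fresh cells (difference of the changes -2.44 ± 0.41, adjusted p = 2.52e-04). Top2a and Cdk1 differed by -2.39 and -2.12. Collagens had a more negative change in 13 of 23 and a more positive one in 5 cases. For Col1a1 (-3.19), Postn (-4.25) and Timp1 (-4.05) the starting level differed too, since fresh control cells held Postn at 8.79 ± 0.409 CPM and fresh roxadustat cells at 132 ± 66.2 CPM, while cultured cells held 1129.6 ± 33.5 and 888 ± 55.6 CPM. Col6a3 rose from 16.2 ± 3.95 to 285 ± 27.9 CPM in control cells and fell from 54.2 ± 22.8 to 23.4 ± 3.48 CPM with roxadustat (difference -5.35 ± 0.28).

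Macrophage genes parted between the arms. In the macrophage and dendritic cell list the change was more negative with roxadustat in 17 of 22 genes and more positive in 1, H2-Ab1. In control itself 14 of the 22 genes were higher and 6 lower at day 7 (median 0.57). Ptprc, Csf1r and Cd74 fell there too, from means of 23.6, 39.2 and 88.4 CPM to 4.37, 8.64 and 0.212 CPM. Lyz2 rose in control from 13.8 ± 2.21 to 242 ± 2.43 CPM and fell with roxadustat from 55.8 ± 7.4 to 6.0 ± 0.239 CPM (difference -7.35 ± 0.14, adjusted p = 1.06e-23), and C1qa (-6.50) and Mrc1 (-5.77) went the same way. H2-Ab1 fell to 0.13 ± 0.061 CPM in control and stood at 28 ± 2.37 CPM with roxadustat (difference 7.97 ± 0.47). Of 22 general epithelial genes the change was more positive with roxadustat in 18 and more negative in 0. Pax8 ended at 115 ± 6.24 CPM with roxadustat and 48.1 ± 1.44 CPM in control (difference 1.11 ± 0.10), and Cdh1 at 4.39 ± 0.178 and 1.7 ± 0.481 CPM (difference 1.72 ± 0.18). Gsta2, a glutathione transferase of the proximal tubule, ended at 9.08 ± 0.794 and 0.173 ± 0.0878 CPM (difference 5.42 ± 0.30), though its reads can be shared with near-identical family members. Ly6a fell further in control, from 523 ± 38.4 to 163 ± 6.58 CPM (difference 1.22 ± 0.11, adjusted p = 1.22e-09). The arms thus also differed in the levels of macrophage and epithelial markers, and the part of these in the other differences was not tested.

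**Figure D5:**
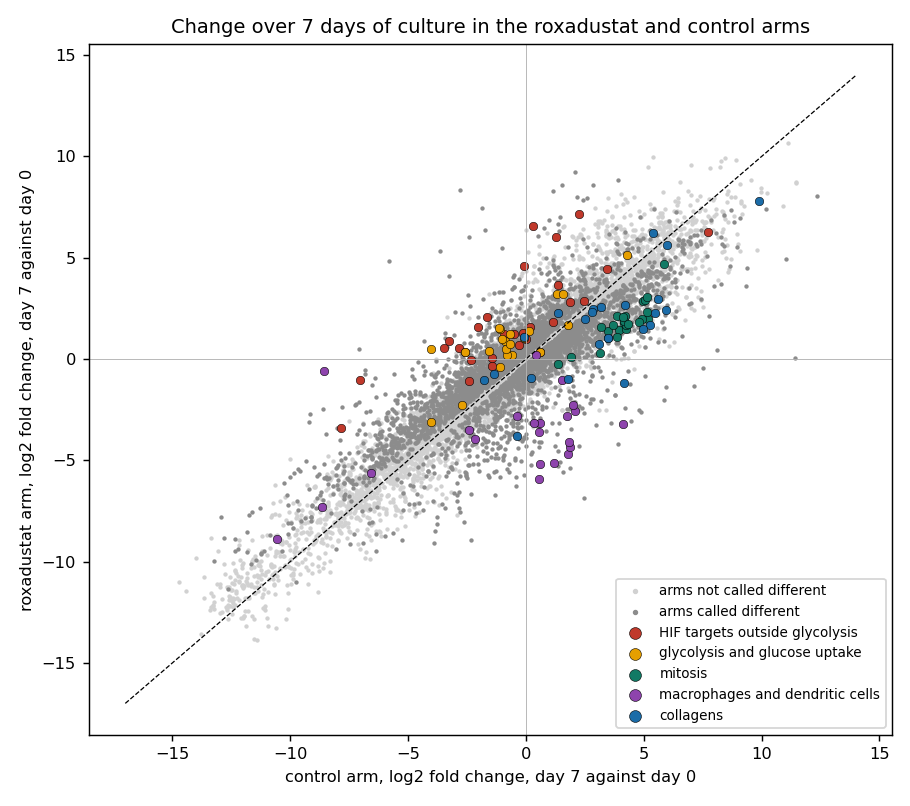
Change from day 0 to day 7 in the roxadustat arm (y axis) against the control arm (x axis), as fitted log2 fold changes, with the dashed line marking equal change. HIF and glycolysis genes lie mostly above the line, and mitosis genes and most macrophage genes below it.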

How the data were processed

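The deposited files hold raw read counts per Ensembl gene that the authors made with bcl2fastq (version not given), STAR 2.5.2a and featureCounts 1.5.0-p1 on mm10, per the submitters' processing notes, from non-stranded TruSeq mRNA libraries, per the labels' protocols. The annotation release is not given in the sources used here. Symbols and coordinates of 47224 of 47729 genes come from GENCODE M21 (GRCm38). Reads of overlapping or antisense genes cannot be told apart without strand.

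All 20 libraries were fitted in 1 model of 6 groups with edgeR 4.0.16 in R 4.3.3 (filterByExpr, TMM, robust quasi-likelihood F test, Benjamini-Hochberg adjustment over the 18731 genes tested). The difference between arms is the contrast of both changes. Each SE was taken from the log2 fold change and the F statistic. An exact permutation test of 4 against 2 libraries cannot go below p = 0.0667, so none is given. A gene with 0 counts in a group was bounded at 3 counts over the group, and with 1 to 3 counts the ratio has an exact 95% interval. The test of day 7 against day 0 was run on simulated counts in which few genes changed. In the real data 74.6% of genes were called, so that run cannot show how the scaling behaves here. It did not cover the difference between arms or the bounds.

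The members and the 38 gene lists were chosen with earlier results of these data known. The rule for named genes takes the 12 largest rises and 12 largest falls (at least 20 CPM in the higher and 4 counts over the lower group, no overlap, no clone names), per list the 2 called members with the smallest p in each direction, abundant members not called, exceptions of 5 or fewer, the 8 largest differences between arms and 15 set genes. Within and beside it, genes were picked or left out with their values seen, among others some whose sign depended on 1 library, and H2-Aa, CT010467.1 and the genes with bounds were named after their values were seen. Alternatives were other scalings (library size, upper quartile, DESeq2 1.42.0 size factors), filters, tools (DESeq2, limma 3.58.1 voom), thresholds, only the groups compared, a replicate block, and leaving out libraries. Leaving out day 7 replicate 4 with day 0 replicate 1 was chosen after seeing the data. Some results are not reported here. No file or column was left out.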

Additional observations from a re-analysis of the deposited data

Results flagged for a closer look

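In 12 of the 175 named genes 1 of the 4 day 7 libraries lay far from the other 3 (Dixon's ratio above its 95% critical value), and chance alone flags about 1 in 20 groups. Replicate 2 was apart in 4 of them. It was highest in Slc12a3 (0.85 CPM, others 0 to 0.144), Fos (7.03, others 5.62 to 5.83) and Fosb (1.32, others 0.624 to 0.724), and lowest in Jun (65.1, others 69.6 to 70.1). Replicate 3 was highest in Fbln2 (3699, others 3340 to 3385), Loxl2 (843, others 720.4 to 732) and Gdf6 (32.3, others 27.7 to 28.3). Replicate 1 was highest in Plau (50.1, others 47.5 to 47.7) and Aldh1a2 (199.6, others 183 to 185) and lowest in Prrx1 (91.6, others 95.6 to 96.1). Replicate 4 was highest in Tgfbi (0.317, others 0.142 to 0.164) and Ube2c (6.51, others 6.0 to 6.09). In each case the flagged value lay on the same side of both fresh libraries as the other 3.

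The change from day 0 to day 7 differed between the arms, by the test of the difference itself, in all 22 genes for which that test is reported, which were picked with their values known. Among all 686 list members tested it differed in 402, beside 5418 of all 18731 genes tested (28.9%). The lists were also chosen with earlier results of these data known. In log2 units, roxadustat minus control, it was more positive for H2-Ab1 (7.97), Slc16a3 (6.28), Ak4 (5.99), Gsta2 (5.42), Hmox1 (4.69), Pdk1 (4.02), Slc2a1 (2.61), Vegfa (2.25), Cdh1 (1.72), Ly6a (1.22) and Pax8 (1.11). It was more negative for Lyz2 (-7.35), C1qa (-6.50), Mrc1 (-5.77), Col6a3 (-5.35), Postn (-4.25), Timp1 (-4.05), Col1a1 (-3.19), Mki67 (-2.44), Top2a (-2.39), Cdk1 (-2.12) and Hif1a (-0.74). Adjusted p-values ran from 1.06e-23 (Lyz2) to 2.93e-04 (Cdk1).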

How the results depend on the processing

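A fold of at least 2 left 3985 of the 6947 higher genes, and 1218 and 937 of the 2901 and 2517 genes with a more positive or more negative change than in control. The other counts stayed within 1.5 times. Leaving out each library gave 6385 to 6841 higher and 6484 to 6994 lower genes, and 2391 to 2843 and 1982 to 2460 in the difference between arms. With a lone day 0 library its spread is assumed to be that of the other groups. Library size alone gave 9479 higher and 5201 lower genes. Same-numbered day 0 and day 7 libraries did not deviate together (correlations -0.0138 and 0.0517 over 9821 genes of at least 10 CPM), so the numbers were not taken as pairs, and with them as a replicate block 6872 genes were higher and 6989 lower, 13650 of 13982 calls being kept in the same direction. By library size alone Cd24a (0.31), Flt1 (0.29), Vegfa (0.37), Timp3 (0.15), Hif1a (0.13), Bhlhe40 (0.10), Pcna (0.084), Tyms (0.079) and Pfkm (0.030) turned positive, and Mmp13 turned without day 0 replicate 1 (0.53) and with day 7 replicate 4 also left out (0.50, chosen after seeing the data), against -1.40 without day 0 replicate 2. The causes were not tested. Of all 686 list members tested, 599 kept direction and call under every alternative and 21 turned under at least 1. The 175 named genes were picked with their values known, and nothing is read from their share. Of 646 list counts 640 stayed within 1.5 times. With a mean of at least 1 CPM, which tested fewer genes, 1 lymphocyte, 0 neutrophil and 4 erythroid genes were lower, with only the groups compared 2 lymphocyte and 0 neutrophil genes, and 3 in place of 5 oxygen sensing genes were lower by library size alone. All 506 values of the 22 differences between arms kept their direction and call. Those 22 genes were kept for being called in that difference, so nothing is read from this either. Depth limits genes below 0.106 CPM at day 0.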
